A study of Homo sapiens with 7 samples.

Results

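VGF and the granin family of regulated secretory proteins were followed through knockdown of the long non-coding RNA GRASLND in 501Mel cells, a human melanoma line of the differentiated, pigmented type. The set held 9 genes chosen by name, namely VGF, the granins CHGA, CHGB, SCG2, SCG3 and SCG5, and the prohormone-processing enzymes PCSK1, PCSK2 and CPE. Of these 9, 5 were matched by name among the 21305 genes of the expression table (VGF, CHGA, SCG2, SCG3 and SCG5), and CHGB, PCSK1, PCSK2 and CPE were not analysed here. VGF was chosen by its values, since it stood higher with the hairpin sh4 and lower with the hairpin sh8, so its levels are given as a description with no test. The question asked of the other genes was whether they followed it.

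RNA-seq was performed on 7 libraries, all from 501Mel cells that carried a doxycycline-inducible short hairpin RNA and were all treated with doxycycline. The control hairpin shlacZ targets a bacterial gene (n = 3), and the hairpins sh4 (n = 2) and sh8 (n = 2) both target GRASLND. According to the methods of the study, the hairpins were delivered by lentivirus in a Tet-pLKO-puro vector and the cells were puromycin-selected pools, so each group is a mixed population from its own transduction. The labels number the replicates but do not say that they came from separate cultures, so p-values measure only the spread between these libraries, which may be technical. The labels also do not link sh4 and sh8 to the target sequences listed by the study, and no link was assumed.

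VGF encodes a secreted neuropeptide precursor that is stored, with the granins, in dense-core vesicles of neurons and endocrine cells. Granins such as chromogranin A (CHGA) and the secretogranins aggregate in the trans-Golgi network and take part in forming these vesicles, prohormone convertases and carboxypeptidase E trim the cargo to active peptides, and a calcium-dependent fusion machinery releases it. VGF is known as a gene induced by neurotrophins and cAMP through a cAMP response element (CRE), and as a target of the repressor REST, which binds RE1 elements and silences neuronal genes outside the nervous system.

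The promoters of VGF, SCG3 and CHGA are shown because such regulatory letters lie in them, which was not so for every member. The RefSeq sequences (GRCh38.p14) run from 250 bases before the transcript start to 50 bases from it, in the direction of the gene, and 7 of the 9 members had an entry, with none for SCG2 and CHGB. Capitals mark the full CRE (TGACGTCA, the same on both strands) and the arms of an RE1-type element, TTCAGCAC followed after a gap of 2 to 10 bases by GGACAG, on either strand. The RE1 arms and the gap were set after the VGF and SCG3 promoters had been read. The VGF promoter is at chr7:101165520-101165819 on the minus strand, that of SCG3 at chr15:51681253-51681552 on the plus strand and that of CHGA at chr14:92922900-92923199 on the plus strand.
VGF: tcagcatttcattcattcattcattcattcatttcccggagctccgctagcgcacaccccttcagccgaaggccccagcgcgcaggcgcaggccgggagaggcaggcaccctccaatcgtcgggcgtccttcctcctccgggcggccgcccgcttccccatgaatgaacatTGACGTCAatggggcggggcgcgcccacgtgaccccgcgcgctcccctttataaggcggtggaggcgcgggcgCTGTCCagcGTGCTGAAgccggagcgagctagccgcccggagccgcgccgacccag
SCG3: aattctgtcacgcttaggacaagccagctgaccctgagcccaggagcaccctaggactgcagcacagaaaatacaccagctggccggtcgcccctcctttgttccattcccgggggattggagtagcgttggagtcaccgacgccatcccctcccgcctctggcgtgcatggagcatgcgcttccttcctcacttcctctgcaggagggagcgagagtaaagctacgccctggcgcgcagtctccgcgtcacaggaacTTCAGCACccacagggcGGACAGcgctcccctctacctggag
CHGA: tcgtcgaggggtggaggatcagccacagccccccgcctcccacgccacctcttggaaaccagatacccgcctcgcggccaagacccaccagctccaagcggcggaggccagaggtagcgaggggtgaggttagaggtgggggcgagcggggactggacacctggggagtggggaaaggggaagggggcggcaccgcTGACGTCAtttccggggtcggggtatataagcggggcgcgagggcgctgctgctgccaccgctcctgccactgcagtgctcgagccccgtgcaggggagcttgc

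In VGF the CRE lay 79 to 72 bases before the start, and the RE1 arms, on the strand opposite to the gene and 3 bases apart, ran from 6 bases before the start to 10 bases after it. In SCG3 the RE1 arms lay 8 to 30 bases after the start, 9 bases apart, with no full CRE in the window. CHGA had the CRE 54 to 47 bases before the start. PCSK1 held it 77 to 70 bases before the start in one entry, while its other entry lacked it. Of the 7 members with an entry, 3 held the full CRE and 2 the RE1 arms. SCG5, CPE and PCSK2 held neither. Of all 35116 RefSeq promoters of this length, 649 (1.85%) held the full CRE and 18 (0.0513%) held the RE1 arms. Because the arms were set on VGF and SCG3, the share of the arms cannot be set against the matches of these genes. The shorter CRE core TGACG, counted on either strand and outside a full CRE, was in 23.4% of promoters. A match of letters is a description of the window and was not tested for binding.

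The targeted transcript GRASLND stood at 309, 330 and 290 normalized counts with shlacZ, at 175 and 131 with sh4 and at 227 and 163 with sh8. All knockdown libraries lay below all control libraries. The fall was -1.02 on the log2 scale with sh4 (SE 0.21, limma adjusted p = 0.00662) and did not pass the test with sh8, where the difference was -0.68 (adjusted p = 0.11). With the hairpins taken as 1 group the difference was -0.85 (limma adjusted p = 0.0402), where 4.61% of all genes passed in either direction. By RT-qPCR, the study reported a significant reduction with each of its GRASLND hairpins. Normalized counts are reads per gene divided by a size factor for each library, and fold changes are differences of log2(normalized count + 1). A gene was said to rise or fall when its adjusted p was under 0.05 over the 15420 genes tested. Depth ranged from 13337317 to 22855232 reads per library.

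The melanocytic identity of the cells was checked first. All 8 melanocytic markers on the list were tested and present, and their summed level was 135855 to 146631 normalized counts in shlacZ, 52282 to 60068 with sh4 and 101817 to 104837 with sh8. With sh4, 6 of the 8 fell, where 11.9% of all genes fell, among them DCT and TYRP1, enzymes of melanin synthesis (log2 fold changes -3.31 and -2.04). With sh8, 0 of 8 passed, where 1.38% of all genes rose and 1.54% fell. Of 10 neuronal and neuroendocrine markers 5 were tested, with ENO2 rising and TUBB3 falling with sh4 (calls lost in 4 and 1 of 7 fits that left out 1 library), and of 6 fibroblast markers only COL1A1 was tested, at a mean of 10.1 over the 7 libraries. These changes moved with sh4 in the same libraries as the results below, and their part in them was not tested. In bulk RNA, a different share of cells of a type and a different amount of RNA per cell cannot be told apart.

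VGF was already expressed in the control cells and moved in opposite directions with the hairpins. The gene (ENSG00000128564) lies at chr7:101162509-101165569 on the minus strand of hg38, and its coding sequence of 1845 bases lies wholly in the second of its 2 exons. Its normalized counts were 1806, 1398 and 1648 with shlacZ, 16280 and 17362 with sh4, and 285 and 591 with sh8. Every sh4 library was above, and every sh8 library below, all controls, and libraries of a group were closer to each other than to any library of another group. The means were 1617 ± 206 (SD, n = 3) with shlacZ, 16821 ± 766 (SD, n = 2) with sh4 and 438 ± 216 (SD, n = 2) with sh8.

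VGF with sh4 was 10.4-fold higher than in the control, and with sh8 it was 3.70-fold lower, a 38.4-fold gap between hairpins against the same lncRNA. On the log2 scale the differences were 3.38 (SE 0.25) with sh4 and -1.97 (SE 0.25) with sh8. In reads, VGF received 1750, 1335 and 1894 in shlacZ, 14415 and 23263 with sh4, and 216 and 649 with sh8, so counting error was small in every library. By normalized count it ranked 49 and 52 among all genes in the sh4 libraries, against 2110, 3037 and 2483 in the controls and 8071 and 5767 with sh8. VGF thus moved from a moderately expressed gene to 1 of the most abundant transcripts with sh4. When the hairpins were taken as 1 knockdown group of 4, the mean was 8629 ± 9470 (SD, n = 4) and the log2 difference was 0.71 (SE 1.30), and leaving out either sh4 library turned its sign to -0.17 or -0.20.

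**Figure D1:**
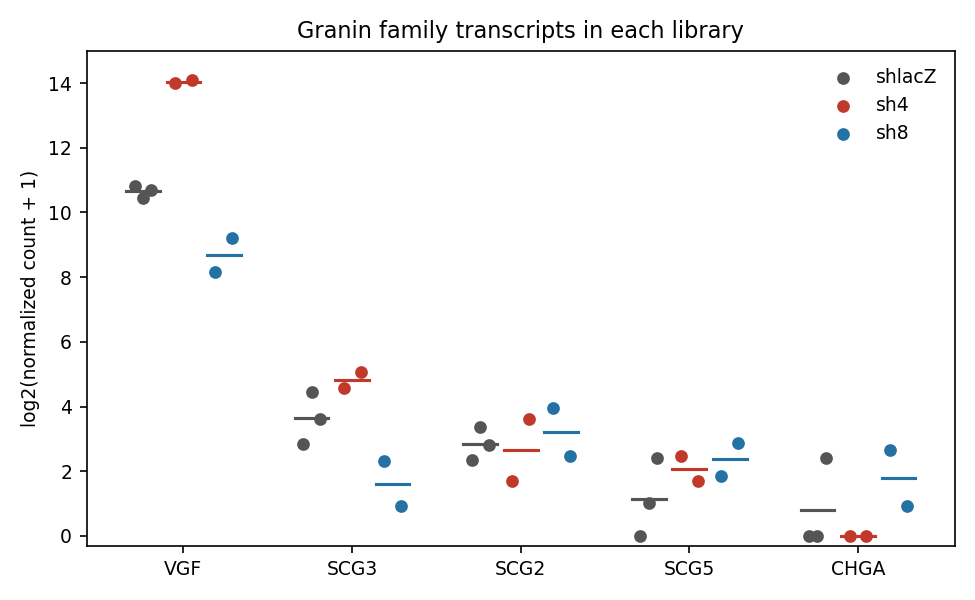
Expression of the 5 members matched by name, as log2(normalized count + 1), in each of the 7 libraries; points are libraries and bars are group means (shlacZ n = 3, sh4 n = 2, sh8 n = 2). VGF separates the 3 groups, SCG3 has the same order at a low level, and SCG2, SCG5 and CHGA are low with overlapping libraries.

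The opposite pattern was uncommon. A log2 fold change over 1 with sh4 together with one under -1 with sh8 was seen in 16 of 15420 genes, a background of 0.104%. All sh4 libraries lay above and all sh8 libraries below all controls in 246 genes (1.6%). Of 2217 genes with a positive fold change under sh4 and a negative one under sh8, VGF ranked 3 by the smaller of its absolute log2 fold changes, after H2BC20P and SRP9P1, which have means of only 16.1 and 16.1 normalized counts. These ranks use the contrasts that chose VGF and are a description.

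SCG3 (secretogranin III), which binds chromogranin A and helps sort it into secretory granules, was the only other member above the minimum mean of 10 normalized counts. The gene (ENSG00000104112) lies at chr15:51681492-51721026. Its normalized counts were 6.19, 20.9 and 11.3 with shlacZ, 22.6 and 32.8 with sh4, and 3.95 and 0.910 with sh8, which correspond to 6, 20 and 13, then 20 and 44, then 3 and 1 reads. The order of the groups was that of VGF and the groups did not overlap, although the highest control library was close to the lower sh4 library.

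SCG3 met the minimum with a mean of 14.1, but without the sh4 libraries, where it is high, its mean was 8.66, so no call is drawn from the fit with the minimum, in which 3.67% of all genes were higher and 3.33% lower with sh4 than with sh8. In the fit of all 21305 genes with no minimum, the difference of SCG3 between sh4 and sh8 was 3.20 on the log2 scale and passed (adjusted p = 0.0206, limma). In that fit 1034 of the 21305 genes passed in either direction. With the minimum its SE was 0.69 and its 95% interval 1.65 to 4.75. Against shlacZ neither hairpin passed in either fit. The difference was 1.18 with sh4 (95% interval -0.23 to 2.59, adjusted p = 0.227 with no minimum) and -2.02 with sh8 (95% interval -3.43 to -0.61, adjusted p = 0.128 with no minimum). With the hairpins as 1 group it was -0.42 (adjusted p = 0.831 with no minimum), where 4.61% of genes passed in either direction with the minimum. The value between hairpins rests on 3 and 1 reads with sh8, and in the fits with the minimum it no longer passed without either sh4 library or without sh8 replicate 2 (adjusted p = 0.0895, 0.191 and 0.124).

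SCG2, SCG5 and CHGA lay under the minimum mean, CHGA and SCG5 with at most 5 and 7 reads in a library and SCG2 with at most 15. SCG2 (secretogranin II), the precursor of secretoneurin, had 4, 9 and 7 reads with shlacZ, 2 and 15 with sh4, and 11 and 5 with sh8. SCG5 (the chaperone 7B2 of the convertase PCSK2) had 0, 1 and 5, then 4 and 3, then 2 and 7 reads. CHGA had 0, 0 and 5, then 0 and 0, then 4 and 1 reads. In none of these genes were all sh4 libraries above and all sh8 libraries below all controls. A count of 0 allows a CHGA level of up to 0.207 and 0.131 CPM (reads scaled to a common library total) in the sh4 libraries, a limit that covers counting error only.

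When the minimum was dropped and all 21305 genes were tested, none of the 3 passed in any comparison, and the lowest adjusted p among them was 0.384. The log2 differences with sh4 and sh8 were -0.20 and 0.36 for SCG2, 0.93 and 1.22 for SCG5, and -0.81 and 0.98 for CHGA. The estimates of CHGA and SCG2 were thus opposite in sign to those of VGF and the estimates of SCG5 were positive with both hairpins, each on a few reads. A change in these 3 was not detectable at this depth. Per kilobase of exon, VGF stood at 603 normalized counts in shlacZ, 6276 with sh4 and 163 with sh8, while in shlacZ SCG3 stood at 4.04, SCG2 at 2.54, SCG5 at 0.819 and CHGA at 0.479. VGF with sh8, at its lowest, was still far above every other granin per length.

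The wider machinery of regulated secretion was then described from lists written from general knowledge. Among the enzymes that cut and modify peptide precursors, 9 of 11 listed genes were tested, and 4 rose and 0 fell with sh4, where 10.5% of all genes rose and 11.9% fell. With sh8, 1 rose and 0 fell, against 1.38% and 1.54% of all genes. Their median log2 fold change was 0.61 with sh4 and 0.36 with sh8, against -0.01 over all genes in each comparison. PAM, which amidates the C-terminus of neuropeptides, stood at 623, 513 and 591 normalized counts with shlacZ, 1709 and 2106 with sh4, and 871 and 939 with sh8.

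Both hairpins placed PAM above every control, a description, since the share of all genes placed so was not counted. The estimates of PAM had the sign of those of VGF with sh4 but not with sh8. Its log2 rise was 1.72 with sh4 (SE 0.14, adjusted p = 0.000101) and 0.66 with sh8 (SE 0.14, adjusted p = 0.0414), and 6 of 7 fits that left out 1 library lost the sh8 call. The ubiquitous convertases FURIN, PCSK6 and MBTPS1 rose with sh4 by 0.79, 0.70 and 0.61 and differed by 0.36, 0.34 and 0.43 with sh8, where they did not pass. With 1 library left out, the sh4 calls of FURIN and MBTPS1 were lost in 2 and 1 of 7 fits and that of PCSK6 in none. QPCT, which forms the N-terminal pyroglutamate of peptides, was the most abundant gene of the list and did not pass with either hairpin. PCSK1N, a granin-like inhibitor of PCSK1, had means of 39.5, 43.3 and 29.1 normalized counts in shlacZ, sh4 and sh8, and passed in neither.

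Of 14 genes that form dense-core vesicles 5 were tested, and 2 rose with sh4 and 1 with sh8, against 10.5% and 1.38% of all genes. CCDC186, which acts with RAB2 in dense-core vesicle maturation, stood at 811, 483 and 690 normalized counts with shlacZ, 2198 and 2633 with sh4, and 1107 and 1380 with sh8. It rose by 1.89 with sh4 (adjusted p = 0.000337) and by 0.93 with sh8 (adjusted p = 0.0456), although the sh8 call was lost in 6 of 7 fits that left out 1 library. PICK1, a membrane-curving protein of immature granules, had log2 differences of 0.60 with sh4 (adjusted p = 0.0379) and -0.25 with sh8 (adjusted p = 0.502). The difference of PICK1 between the hairpins was 0.84 (adjusted p = 0.0304), and its sh8 libraries, at 227 and 173, overlapped the controls at 226, 251 and 229. Leaving out 1 library lost the PICK1 call with sh4 in 4 of 7 fits and that between hairpins in 5 of 7.

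**Figure D2:**
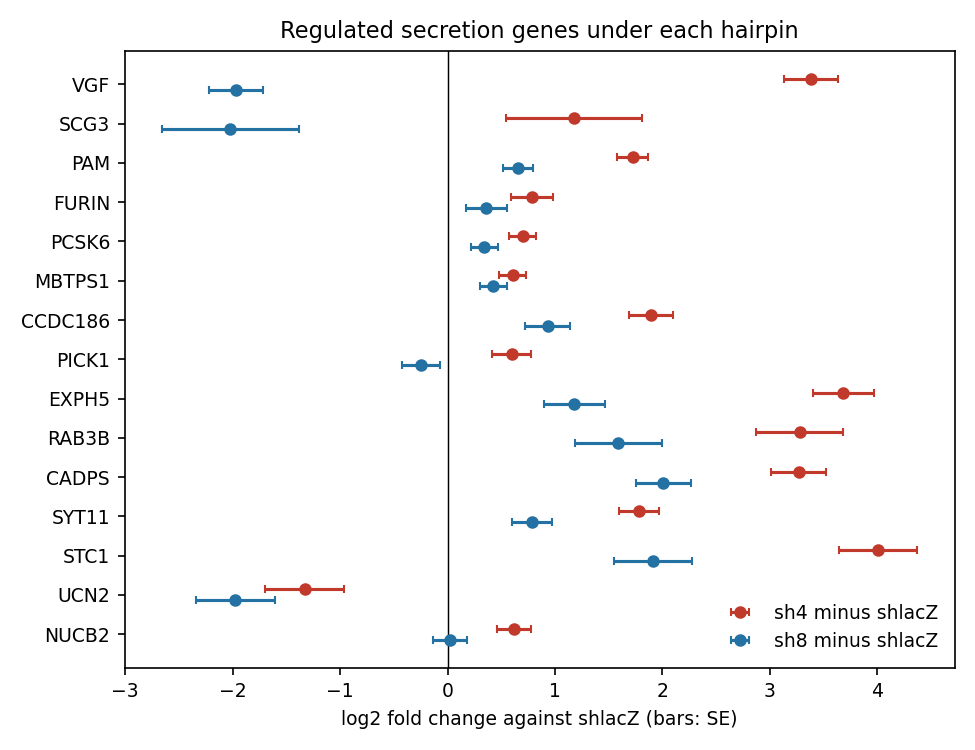
Log2 fold change against shlacZ of VGF, SCG3 and the named genes of regulated secretion, with sh4 (red) and sh8 (blue); points are limma estimates from 7 libraries and bars are SE. VGF, SCG3 and PICK1 are the genes with a positive value under sh4 and a negative one under sh8, and most others are positive under both, with UCN2 negative under both.

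The list of vesicle docking and release held 37 genes, of which 21 were tested, and 9 rose and 3 fell with sh4, where 10.5% of all genes rose and 11.9% fell. With sh8, 1 rose and 0 fell, against 1.38% and 1.54% of all genes. The median log2 fold change was 0.86 with sh4 and 0.16 with sh8, against -0.01 over all genes in each. Of the 9 that rose, SYTL3 met the minimum only through its sh4 libraries (mean 7.89 without them), so its call is no support. CADPS (CAPS1), which primes dense-core vesicles for fusion, stood at 108, 200 and 213 normalized counts with shlacZ, 1591 and 1639 with sh4, and 713 and 635 with sh8. CADPS thus rose with both hairpins, by 3.27 with sh4 (SE 0.26, adjusted p = 8.48e-05) and by 2.01 with sh8 (SE 0.26, adjusted p = 0.00374), and was higher with sh4 than with sh8 by 1.26 (adjusted p = 0.0257). With 1 library left out, the CADPS rise with sh4 was kept in all 7 fits, while the sh8 call was lost in 2 and the call between hairpins in 4.

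EXPH5 (Slac2-b), an effector of RAB27, had 82.6, 45.0 and 76.6 normalized counts with shlacZ, 724 and 1017 with sh4, and 133 and 170 with sh8. Its rise was 3.68 with sh4 (adjusted p = 8e-05), and its difference of 1.18 with sh8 did not pass (adjusted p = 0.0564). RAB3B, a small GTPase of secretory vesicles, rose by 3.28 with sh4 and SYT11, a member of the synaptotagmin family, by 1.78, with differences of 1.59 and 0.79 under sh8 that did not pass. EXPH5, RAB3B and SYT11 were above every control library with both hairpins. The share of all genes placed so was not counted, so this is a description. The genes that fell with sh4 were the vesicle GTPase RAB3A (-1.07), RAB27A (-0.34), which also moves melanosomes, and the SNARE-binding complexin CPLX1 (-1.42). The last 3 lie outside the rule for named genes and are given because they complete the count.

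**Figure D3:**
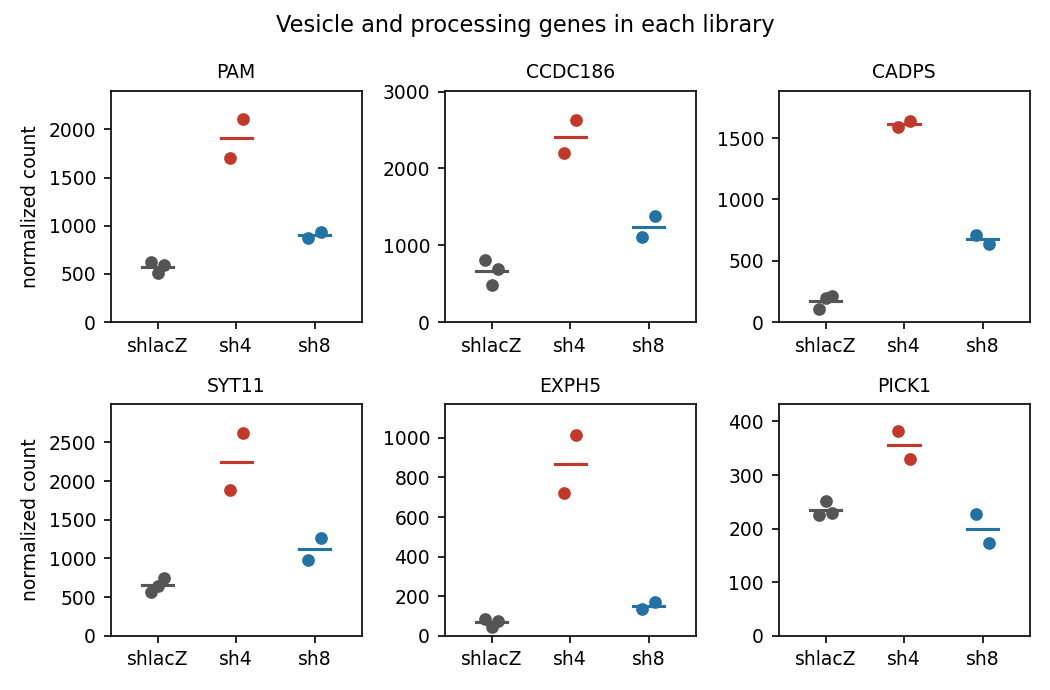
Normalized counts of the peptide-amidating enzyme PAM and 5 vesicle genes in each library, each panel with an axis from 0; points are libraries and bars are group means. PAM, CCDC186, CADPS, SYT11 and EXPH5 are above every control with both hairpins and higher with sh4, and PICK1 with sh8 overlaps the controls. The share of all genes placed above every control with both hairpins was not counted.

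Other cargo was mostly low. Of 36 neuropeptide and peptide hormone precursors, 8 were in the table and 6 were tested, with 3 higher and 1 lower with sh4 (10.5% and 11.9% of all genes) and 1 higher and 1 lower with sh8 (1.38% and 1.54%). Of the 3, NPPC, the precursor of C-type natriuretic peptide, met the minimum only through its sh4 libraries (mean 4.93 without them), so its call is no support. STC1 (stanniocalcin 1), a secreted glycoprotein hormone, had 38.2, 34.6 and 69.6 normalized counts with shlacZ, 702 and 781 with sh4, and 117 and 256 with sh8, and rose with both hairpins by 4.01 and 1.92. UCN2 (urocortin 2), a ligand of a corticotropin-releasing hormone receptor, fell with both, from a mean of 173 ± 69.8 (SD, n = 3) to 67.2 ± 23.2 (SD, n = 2) with sh4 and 42.7 ± 15.6 (SD, n = 2) with sh8. NUCB2, the precursor of nesfatin, rose by 0.62 with sh4 and differed by 0.02 with sh8. The sh4 rise of STC1 was kept in all 7 fits that left out 1 library, its sh8 rise was lost in 4, the UCN2 falls in 3 with sh4 and 4 with sh8, and the NUCB2 rise in 3.

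REST and CREB1, which are known to act on the VGF promoter, were followed at any level. REST stood at 1526 ± 40.2 normalized counts with shlacZ (SD, n = 3), 1854 ± 216 with sh4 and 1856 ± 3.62 with sh8 (SD, n = 2 each). The difference of REST was 0.28 with each hairpin (adjusted p = 0.118 and 0.235). Of 9 genes of the REST complex 8 were tested. Only KDM1A, a histone demethylase of the corepressor, passed, with a fall of -0.59 with sh4. This count was close to the 11.9% of all genes that fell with sh4. CREB1, the factor that binds the CRE, differed by -0.03 with sh4 (adjusted p = 0.919) and 0.29 with sh8 (adjusted p = 0.391).

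All 12 genes of cAMP signalling and CREB regulation were tested. Only PRKAR1A, a regulatory subunit of protein kinase A, rose with sh4 (0.73), where 10.5% of all genes rose, and 0 passed under sh8. Of 14 cAMP-responsive genes, all tested, 1 rose and 2 fell with sh4 and 1 rose with sh8, where 1.38% of all genes rose. With sh4 these counts were close to the 10.5% and 11.9% of all genes. NR4A2, a nuclear receptor induced by cAMP, rose with both, by 0.97 with sh4 and 0.84 with sh8, and PPARGC1A and NR4A3 fell with sh4 by -0.94 and -0.62. Of 12 neuroendocrine transcription factors 5 were tested. PROX1 (1.22) and ONECUT2 (0.50) rose with sh4, where 10.5% of all genes rose, and none passed under sh8. Among 9 neurotrophins and their receptors only the sorting receptor SORT1 was tested, and it passed with neither hairpin. With 1 library left out, the calls of PRKAR1A and of NR4A2 with sh4 were kept in all 7 fits, whereas those of NR4A2 with sh8, PPARGC1A, PROX1, ONECUT2 and NR4A3 were lost in 5, 4, 3, 2 and 2 fits.

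The peptide receptors of VGF were followed at any level. C1QBP, a mostly mitochondrial protein reported to bind a VGF-derived peptide, was at 3096 ± 774 normalized counts with shlacZ (SD, n = 3), 1729 ± 356 with sh4 and 2051 ± 136 with sh8 (SD, n = 2 each). It fell with sh4 by -0.82 (adjusted p = 0.02), and its difference of -0.56 with sh8 did not pass. The C1QBP fall was lost in 3 of 7 fits that left out 1 library. C3AR1, a complement receptor that also binds such a peptide, lay under the minimum with means of 0.349, 4.31 and 0.659 normalized counts.

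Because RE1 arms were in both VGF and SCG3, the other genes whose promoters hold them were listed. There were 17 such genes, of which 8 were in the table and 5 were tested, namely VGF, SCG3, UNC13A, UNC80 and WDR20. Apart from VGF and SCG3, 2 of 3 rose with sh4 (10.5% of all genes) and none of the 3 passed with sh8. UNC13A, a vesicle priming protein of synapses, stood at 21.7, 17.8 and 12.2 normalized counts with shlacZ, 68.9 and 63.4 with sh4, and 22.4 and 14.6 with sh8. It rose by 1.92 with sh4 (adjusted p = 0.00602), differed by 0.10 with sh8 (adjusted p = 0.914), and was 1.81 higher with sh4 than with sh8 (adjusted p = 0.0282).

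UNC80, a subunit of a sodium leak channel complex, had mean levels of 117, 115 and 63.3 normalized counts and passed in no comparison, and WDR20 rose by 0.75 with sh4. UNC13A, UNC80 and WDR20 were taken up after the motif search and lie outside the rule for named genes. With 3 genes, nothing can be read from these counts about promoters that hold the arms.

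Genes that start within 100 kb of the VGF start were examined next. Of 11 annotated genes described here, 7 were tested, and 3 rose with sh4, where 10.5% of all genes rose. None passed with sh8, where 1.38% of all genes rose and 1.54% fell. AP1S1, a subunit of the adaptor complex that sorts cargo at the trans-Golgi network, starts 11113 bases away toward lower coordinates. It rose by 0.66 with sh4 (adjusted p = 0.0154), with 665 and 788 normalized counts against 417, 484 and 478, and its sh8 libraries, at 384 and 480, overlapped the controls. NAT16, 14724 bases away toward higher coordinates, had 42.3, 19.9 and 26.1 with shlacZ, 160 and 113 with sh4, and 17.1 and 35.5 with sh8, a rise of 2.22 with sh4 (adjusted p = 0.00461).

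TRIM56, at 80088 bases, rose by 0.45, whereas ZNHIT1, PLOD3, CLDN15 and FIS1, all at higher coordinates, passed in neither comparison. Leaving out 1 library lost the sh4 rise of TRIM56 in 4 of 7 fits, and those of AP1S1 and NAT16 in 1 each. The genes MIR4653, MOGAT3, DGAT2L7P and RPSAP46 were not analysed here.

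**Figure D4:**
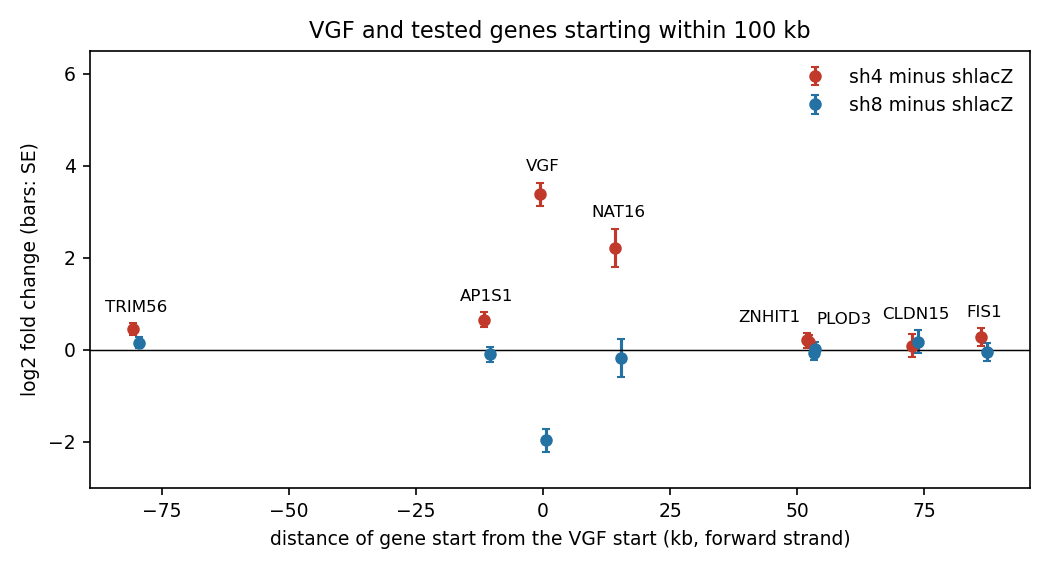
Log2 fold change against shlacZ of VGF and 7 tested genes that start within 100 kb, by distance of the gene start from the VGF start in kb; points are limma estimates (sh4 red, sh8 blue) and bars are SE. AP1S1, NAT16 and TRIM56 are raised with sh4, and VGF alone lies far below 0 with sh8.

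Genes with the pattern most like VGF were named by Pearson correlation of log2 values over the 7 libraries, with a minimum mean of 100. The 6 highest were TRIM2 (r = 0.995), REV1 (0.994), TNKS (0.992), HAGH (0.988), ONECUT2 (0.987) and EFL1 (0.987). The points share libraries, groups and depth, and the correlation says nothing of size. TNKS, a poly-ADP-ribose polymerase, ranged from 2237 to 4839 normalized counts and REV1, a DNA polymerase, from 1333 to 1632, against 285 to 17362 for VGF. SCG3 had r = 0.79 and ranked 854 of 15419 genes, CREB1 had r = -0.44 and REST r = 0.15.

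By size, 5 genes with a mean of at least 50 had a log2 fold change over 1 with sh4 and under -1 with sh8, namely VGF, FAM187A, BICDL1, CSRNP1 and FAM156A. BICDL1, an adaptor that links vesicles to the dynein motor, had 97.0, 70.2 and 104 normalized counts with shlacZ, 230 and 181 with sh4, and 40.9 and 41.0 with sh8. Its replicates were close and its groups did not overlap, with fold changes of 1.19 and -1.11 on the log2 scale. FAM187A was at 0 in 1 sh8 library and at 48.8 in the other, and FAM156A was at 327 in 1 control against 18.6 and 19.1 in the others, so their values rest on single libraries. FAM156A has a near-identical copy and FAM187A overlaps other genes, so the assignment of their reads is uncertain. The reverse pattern, lower with sh4 and higher with sh8, was met by 2 genes, ENSG00000257411 and PWAR5, each with a library at 0.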

How the data were processed

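RNA was sequenced from 7 libraries of doxycycline-induced 501Mel cells (shlacZ n = 3, sh4 n = 2, sh8 n = 2). According to the study's methods and the submitters' processing notes, rRNA-depleted stranded libraries were trimmed with cutadapt, aligned to hg38 with STAR, quantified with Salmon and scaled with DESeq2, and versions are not given in the sources used here. The authors deposited normalized counts, a score per gene equal to reads over 1 size factor per library. All values (100%, tolerance 0.001 reads) were whole multiples of 1 read, which gave the depth of 13337317 to 22855232 reads per library. The values were handled as normalized counts and no negative binomial test was run, while the recovered reads were used for limma-voom as an alternative. Such scaling hides a change shared by most transcripts. The table held 21305 genes with at least 10 summed reads, and 0 columns of other samples. Of their identifiers, 21281 (99.9%) were in GENCODE release 44, which gave coordinates and exon lengths, and 4633 had no symbol, of which 233 were filled.

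limma 3.58.1 in R 4.3.3, with the empirical Bayes trend, was run on log2(normalized count + 1) for 15420 genes with a mean of at least 10, with Benjamini-Hochberg adjustment over all of them. The 3 groups shared 1 estimate of the spread, and knockdown (n = 4) against control used a fit with 2 levels. The pseudocount understates the change of low genes. The test was also tried on simulated data with known changes, whose outcome is not given here. Members, lists and tests were chosen with earlier results of these data known. Named genes were the members, up to 4 genes per list that passed with either hairpin and had a mean of at least 50 (the larger fold changes first), genes within 100 kb of the VGF start, the 6 genes most correlated with VGF (mean at least 100), up to 8 genes with log2 fold changes over 1 and under -1 (mean at least 50), REST, CREB1, the VGF peptide receptors and GRASLND. Some items are not reported here. Alternatives covered the pseudocount, the minimum, 2 scalings, the variance trend, the replicate block, the groups in the fit, limma-voom on the recovered reads, a fold change threshold and leaving out each library. Promoters were taken from RefSeq (GRCh38.p14).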

Additional observations from a re-analysis of the deposited data

Results flagged for a closer look

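Groups of 2 and 3 libraries were too small for a test of single outlying libraries, so the results here are differences between the effects of the hairpins, as log2 differences of sh4 minus sh8. VGF differed by 5.35, with every sh4 library above and every sh8 library below the controls; this difference was not tested, since its values chose the gene. SCG3 differed by 3.20, on few reads. Among genes of regulated secretion, PAM differed by 1.07, CCDC186 by 0.96, PICK1 by 0.84, EXPH5 by 2.50, CADPS by 1.26, SYT11 by 0.99 and STC1 by 2.09. Each was higher with sh4 than with sh8 at a limma adjusted p under 0.05, where 3.67% of all genes were higher. These genes were named for passing against shlacZ in the same sh4 or sh8 libraries, so the naming favours such calls. RAB3B, FURIN, PCSK6, MBTPS1, NUCB2 and UCN2 were named by the same rule and did not pass between the hairpins. Among the 7 that passed, the EXPH5 call was kept in all 7 fits that left out 1 library, and the others were lost in 2 to 5. Of these 7 genes, all but PICK1 had a positive difference from shlacZ with sh8 too, whereas the estimates of VGF and SCG3 with sh8 were negative.

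Among regulators and markers, ONECUT2 differed by 0.72, ENO2 by 1.07 and KDM1A by -0.46, calls lost in 3, 3 and 6 of 7 fits that left out 1 library. Over all genes, 3.67% were higher and 3.33% lower with sh4 than with sh8. PROX1, PRKAR1A, NR4A2, PPARGC1A, NR4A3, C1QBP and TUBB3 were named by the same rule and did not pass between the hairpins. ENO2, a neuronal enolase, stood at 767, 782 and 782 normalized counts with shlacZ, 1217 and 1051 with sh4, and 456 and 633 with sh8. This was the order of VGF with no overlap of groups, which 1.6% of all genes met. Of the other tested neuronal markers, TUBB3, NCAM1 and SYP had negative differences with sh4 (-0.80, -0.68 and -0.09) and DLL3 a positive one (0.30). Of these, only TUBB3 passed. The melanocytic genes DCT, TYRP1, MLANA and PMEL differed by -2.31, -1.54, -1.01 and -0.71, lower with sh4, with the calls of MLANA and PMEL lost in 3 of 7 such fits each and those of DCT and TYRP1 in none. Near VGF, AP1S1 differed by 0.75 and NAT16 by 2.40, calls lost in 4 and 3 of 7 such fits. The part of the loss of melanocytic transcripts in these differences was not tested.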

How the results depend on the processing

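With VGF left out as chosen by its values, SCG3 was the 1 member tested by limma with the minimum, which it met only through its sh4 libraries (mean 8.66 without them). With no minimum, 4 members were tested and the counts stayed at 1 between sh4 and sh8 and 0 in the other comparisons. limma-voom was run with the minimum, where SCG3 was the 1 member tested. It gave the same counts, which is no separate support. With sh8 the unadjusted p of SCG3 was 0.00977. The count between hairpins became 0 with no variance trend, and over the fits that left out 1 library it ranged from 0 to 1. Against shlacZ, the count with sh8 ranged from 0 to 1 over such fits, with the call made without shlacZ replicate 1 (adjusted p = 0.037). The cause of these changes was not tested. A minimum mean of 50 left no member to test. The replicate block gave the same counts of members (0 with sh4, 0 with sh8, 1 between hairpins and 0 for knockdown). Same-numbered libraries were not taken as pairs, as their correlations over genes ran from -0.0781 to 0.337. VGF with both hairpins together turned from 0.71 to -0.17 without sh4 replicate 1 and to -0.20 without sh4 replicate 2, and reached 1.78 without sh8 replicate 1. SCG3 turned from -0.42 to 0.34 without sh8 replicate 2 and reached -1.04 without sh4 replicate 2. For each hairpin VGF kept its direction in every setting, at 3.28 to 3.47 with sh4 and -2.49 to -1.44 with sh8 when 1 library was left out. Over the alternatives, 751 values of other named genes kept their call and direction, 150 lost the call and 0 reversed. Low members are limited by depth: SCG2, SCG5 and CHGA had at most 15 reads in a library.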
